A study of Homo sapiens with 6 samples.

Results

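The genes described here are 45 human genes of the lysosome, namely 13 proteases, 11 glycosidases, 5 sulfatases and 1 phosphatase, 7 genes for the breakdown or handling of lipids, 6 membrane proteins and 2 sorting receptors. They were taken by gene symbol from a table of 30483 genes, and all 45 symbols had 1 row. RNA was sequenced from A549, a cell line derived from a lung adenocarcinoma, after 48 h with 5 µM anlotinib or with the solvent DMSO, with 3 libraries per group. Anlotinib is an oral inhibitor of receptor tyrosine kinases of the VEGF, FGF and PDGF receptor families and of KIT. The study asked through which pathways anlotinib acts on pressure in the tumor stroma, and it compared the drug with DMSO in the tumor cells alone. All libraries come from 1 cell line, and the labels do not say that replicates were separate cultures, so p-values measure the spread between these libraries, which may be technical.

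Lysosomes are acidic organelles in which hydrolases break down proteins, sugar chains, sulfated glycans and lipids. Most soluble hydrolases receive a mannose 6-phosphate tag in the Golgi apparatus and are carried to endosomes by 2 receptors, encoded by M6PR and IGF2R, while heavily glycosylated proteins such as those of LAMP1 and LAMP2 line the membrane. Many of these genes are targets of TFEB and the related factors TFE3 and MITF, which bind E-box motifs around CACGTG.

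Values are normalized counts, that is reads per gene divided by 1 size factor per library. The libraries held 15047663 to 15386107 reads with anlotinib and 13886120 to 15212087 with DMSO. Of the 30483 genes, 24594 to 27183 were detected in the anlotinib libraries and 23865 to 23993 in the DMSO libraries, with anlotinib replicate 3 the highest. Mitochondrially encoded genes took 6.93% to 8.60% of the counts with anlotinib and 6.18% to 6.85% with DMSO. The label of an epithelial line was checked with 6 markers. Their summed level was 38597 to 57434 with anlotinib and 71598 to 75096 with DMSO, and of the 5 tested, 2 rose and 1 fell. The keratin KRT7 fell (log2 -1.03, adjusted p = 0.000354), while the keratin KRT19 (log2 1.28, adjusted p = 0.000186) and CDH1, which encodes E-cadherin (log2 0.53, adjusted p = 0.0171), rose. The keratin KRT8 stood at 19158 ± 4048 with anlotinib and 21101 ± 365.3 with DMSO (SD, n = 3 each), but the epithelial marker EPCAM was close to 0, at 7.72 and 6.61. On the first principal component of all genes, which held 57.9% of the variance, anlotinib replicate 1 lay nearest to DMSO (0.15, with 0.29 and 0.33 for the other anlotinib libraries and -0.28 to -0.24 for DMSO).

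Of the 45 lysosomal genes, 13 rose with anlotinib, 1 fell and 31 did not pass. A gene was called at an adjusted p under 0.05 from limma, fitted to the 15734 genes that averaged 10 or more normalized counts. Each log2 change is a difference of log2(normalized count + 1), anlotinib minus DMSO. Of all genes tested, 10.5% were called higher, 12.7% lower and 23.2% in either direction, so the members' 28.9% higher lay above that background and their 2.22% lower lay under it. The members were chosen with earlier results of these data known, so that excess is no test of lysosomal genes as a class. Of 65 other lysosomal and sorting genes tested, 10.8% were called higher and 6.15% lower. All 45 members passed the filter on low values, although CLN3 did so only through the anlotinib libraries, with a DMSO mean of 6.99. The median change of the 45 was 0.14 on the log2 scale, beside -0.02 over all genes tested, and the changes ranged from -0.48 for ACP2 to 1.74 for GPNMB. Most of the increases were small: 10 of the 13 were under 0.6 on the log2 scale, and 2 members, NEU1 and GPNMB, passed with a change of at least 2-fold (4.44%, near the 5.27% of all genes tested). Bulk RNA does not tell a change in RNA per cell from a change in the share of cells that make it.

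**Figure D1:**
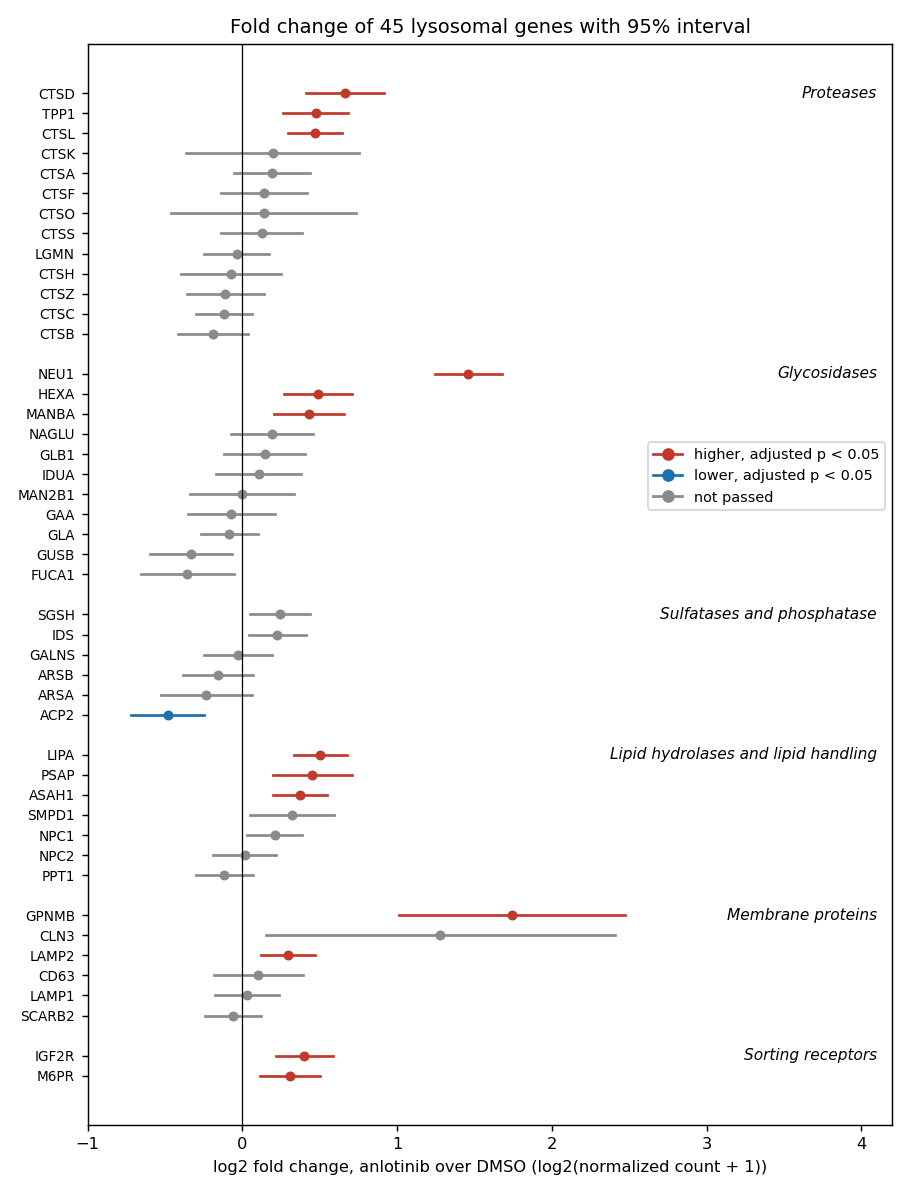
Log2 fold change of each of the 45 lysosomal genes (points) with its 95% interval from limma (lines), grouped by role. The 13 genes in red rose and ACP2, in blue, fell, and the 31 grey genes did not pass after adjustment.

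The counts depended on the libraries. Without anlotinib replicate 1 the fit called 15 members higher (33.3%, beside 14.4% of all genes tested) and 7 lower (15.6%, beside 20.4%), and the median change of the 45 was 0.01, beside -0.02 over all genes. The 13 increases and the decrease of ACP2 all remained in that fit, and IDS and SGSH joined the increases. FUCA1, GUSB, ARSA, CTSB, CTSZ and GAA joined the decreases. Without any other single library, 9 to 16 members were called higher and 1 lower. The number of all genes called also moved with the libraries, for example from 3648 with all of them to 5487 without anlotinib replicate 1. Shares of all genes in the other fits are not given here, so 9 to 16 cannot be placed above or under a background. Among the anlotinib libraries, replicate 1 held the highest value for 32 of 45 members (71.1%, beside 42.1% of all genes tested) and replicate 3 the lowest for 30 (66.7%, beside 42.4%). The median difference of the members from the DMSO mean was 0.30 in anlotinib replicate 1, 0.11 in replicate 2 and -0.05 in replicate 3. The DMSO libraries lay between -0.01 and 0.02. The spread between anlotinib libraries was larger than that between DMSO libraries for 39 of 45 members (86.7%), beside 65.2% of all genes tested.

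**Figure D2:**
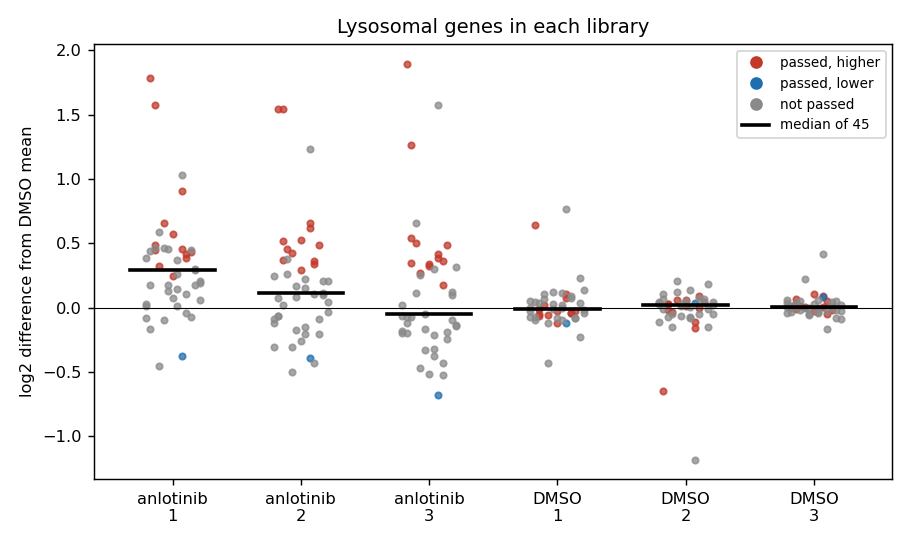
Difference of each of the 45 genes from its DMSO mean on the log2(normalized count + 1) scale, in each library, with the median as a black bar. The bar lies at 0.30, 0.11 and -0.05 in anlotinib replicates 1, 2 and 3 and near 0 in the DMSO libraries, and the red genes stay above 0 in all 3 anlotinib libraries.

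Summed over the 45 genes, the lysosomal transcripts took 0.698%, 0.662% and 0.666% of the counts in the anlotinib libraries, against 0.549%, 0.542% and 0.545% in the DMSO libraries. The groups did not overlap, with means of 0.675% ± 0.0196 with anlotinib and 0.546% ± 0.0034 with DMSO (SD, n = 3 each). PSAP alone made up 21.9% to 23.7% of the members' counts with anlotinib and 18.9% to 19.9% with DMSO. Without PSAP the other 44 genes still took 0.513% to 0.532% with anlotinib and 0.434% to 0.445% with DMSO. These shares divide by the total of each library, which was lowest in anlotinib replicate 3 (13341090, beside 14871291 to 15519547 with DMSO). As normalized counts, the 44 genes summed to 81811, 75120 and 69367 with anlotinib, against 66196, 67356 and 66716 with DMSO. On that scale anlotinib replicate 3 lay only a little above DMSO.

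Among the proteases, 3 of 13 rose (23.1%, beside 10.5% of all genes tested), 0 fell (beside 12.7%) and 10 did not pass. Their median was 0.14. With all libraries kept, none of the 13 was lower at an unadjusted p under 0.05 from limma, or after adjustment with edgeR or DESeq2. The same held for the 7 lipid genes and the 6 membrane proteins. Without anlotinib replicate 1, CTSB and CTSZ were called lower. CTSD, the aspartic protease cathepsin D (chromosome 11, 1752752 to 1764573), had 3838, 3234 and 2736 normalized counts with anlotinib, against 2198, 1897 and 2052 with DMSO. Every anlotinib library lay above every DMSO library, and replicate 1 was the highest. CTSD was 1.58-fold higher (log2 0.66, SE 0.12, adjusted p = 0.00147), and it overlaps 3 other annotated genes, 2 of them on its own strand. CTSL, the cysteine protease cathepsin L (chromosome 9, 87725519 to 87731393), had 6137, 6391 and 6391 with anlotinib, against 4480, 4697 and 4493 with DMSO. The increase was 1.38-fold (SE 0.08 on the log2 scale, adjusted p = 0.00142), in a gene that no other annotated gene overlaps. TPP1, the tripeptidyl peptidase lost in a childhood form of neuronal ceroid lipofuscinosis (chromosome 11, 6612763 to 6619485), had 1756, 1697 and 1474 with anlotinib, against 1086, 1189 and 1273 with DMSO. It was 1.39-fold higher (adjusted p = 0.00405) with no overlap between the groups.

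The other 10 proteases did not pass. CTSB, cathepsin B, had 6500, 5569 and 4954 with anlotinib, against 6434, 6462 and 6416 with DMSO, a log2 change of -0.19 (adjusted p = 0.207). The DMSO libraries were nearly equal, and anlotinib replicate 1 lay above them while replicates 2 and 3 lay below. Without anlotinib replicate 1, CTSB passed as lower (-0.29, adjusted p = 0.0118). CTSZ, the carboxypeptidase cathepsin Z, had the same arrangement, with 2803, 2205 and 1976 against 2471, 2504 and 2482 (-0.11, adjusted p = 0.529). CTSA, the protective protein of the complex with NEU1 and GLB1, stood at 0.19 (95% interval -0.05 to 0.43), and CTSC, an aminopeptidase that activates granule proteases in immune cells, at -0.12 (-0.30 to 0.06). LGMN, the asparaginyl endopeptidase legumain, had -0.04 (-0.25 to 0.17), CTSF 0.14 (-0.14 to 0.42) and CTSH -0.07 (-0.40 to 0.25). CTSS, a cathepsin of antigen-presenting cells, had 0.12 (-0.14 to 0.39) at a mean of 360 with anlotinib and 332 with DMSO. The intervals were widest for the proteases of lowest count, CTSK, the collagen-degrading cathepsin of osteoclasts, with 0.20 (-0.37 to 0.76) at 75.5 and 62.8, and CTSO with 0.14 (-0.46 to 0.73) at 42.7 and 38.6.

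Among the glycosidases, which remove single sugars from glycans and glycolipids, 3 of 11 rose (27.3%, beside 10.5% of all genes tested). Of the 11, 0 fell (beside 12.7%) and 8 did not pass, with a median of 0.11. At an unadjusted p under 0.05 from limma 2 of them, GUSB and FUCA1, were lower, and 0 were lower after adjustment with edgeR or DESeq2. NEU1, the lysosomal sialidase (chromosome 6, 31857659 to 31862906), had 1786, 1739 and 1437 normalized counts with anlotinib, against 570.8, 609.1 and 614 with DMSO. Every anlotinib library lay far above every DMSO library. NEU1 was 2.75-fold higher (SE 0.10 on the log2 scale, adjusted p = 1.35e-06), no other annotated gene overlaps it, and it passed in each of the 17 alternative fits. HEXA, the alpha subunit of β-hexosaminidase (chromosome 15, 72340919 to 72376476), had 998.8, 1118 and 949.5 with anlotinib, against 764.7, 651.9 and 773.2 with DMSO. It was higher by 0.49 on the log2 scale (SE 0.10, adjusted p = 0.00442), with overlapping genes on both strands. MANBA, β-mannosidase (chromosome 4, 102630770 to 102760994), had 361.2, 395.5 and 408.7 with anlotinib, against 292.4, 281.6 and 289.6 with DMSO. It was 1.35-fold higher (adjusted p = 0.0105), and its call was lost without anlotinib replicate 2 (adjusted p = 0.0564).

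The glycosidases that did not pass included both directions. GUSB, β-glucuronidase, had 604.3, 461.1 and 432.7 with anlotinib, against 653.3, 601.9 and 612 with DMSO, a log2 change of -0.33 (adjusted p = 0.0702). FUCA1, α-fucosidase, had 240.1, 180.7 and 184.4 against 235.6, 279.5 and 255.7 (-0.36, adjusted p = 0.0838). In both genes anlotinib replicate 1 reached into the DMSO range and the other anlotinib libraries lay below it, and both passed as lower without that library (adjusted p = 0.0008 for GUSB and 0.0069 for FUCA1). GAA, the acid α-glucosidase that degrades glycogen, stood at -0.07 (95% interval -0.35 to 0.21), and GLA, α-galactosidase A, at -0.09 (-0.27 to 0.10). GLB1, β-galactosidase, had 0.14 (-0.12 to 0.41), NAGLU, an enzyme of heparan sulfate breakdown, 0.19 (-0.07 to 0.46), IDUA, α-iduronidase, 0.11 (-0.17 to 0.38), and MAN2B1, the acid α-mannosidase, -0.00 (-0.34 to 0.34). The value of MAN2B1 rested on anlotinib replicate 1, at 800, with 510.6 and 494.7 in the other anlotinib libraries and 554.8 to 606.8 with DMSO.

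The sulfatases, which remove sulfate groups from glycans and sulfolipids, did not pass: by limma 0 of 5 rose and 0 fell, while at an unadjusted p under 0.05 SGSH and IDS were higher, and SGSH passed with edgeR but not with DESeq2. ACP2, the lysosomal acid phosphatase (chromosome 11, 47239302 to 47248906), was the 1 member that fell. It had 509.5, 504.9 and 413.2 normalized counts with anlotinib, against 610.4, 679.5 and 701.3 with DMSO, with no overlap between the groups. Its log2 change was -0.48 (SE 0.11, adjusted p = 0.00728), and it passed in each of the 17 alternative fits. Its span is shared by NR1H3, which encodes the sterol-sensing receptor LXRα and is read from the other strand. Whether reads were counted by strand is not stated, so reads of such pairs may be mixed. The same limit holds for other members that rose. TPP1, MANBA, PSAP and IGF2R overlap annotated genes on their own strand. TPP1, MANBA, ASAH1, IGF2R and M6PR overlap annotated genes on the opposite strand. SGSH, the sulfamidase of heparan sulfate breakdown, had 614.4, 613.3 and 659.6 with anlotinib, against 524.8, 547.9 and 520.6 with DMSO (0.24, adjusted p = 0.0703). IDS, iduronate sulfatase, had 3081, 3248 and 3436 against 2820, 2635 and 2904 (0.22, adjusted p = 0.0753). Neither gene overlapped between groups, neither passed, and both passed as higher with scaling by library totals (adjusted p = 0.0439 for SGSH and 0.0363 for IDS). ARSA, which desulfates sulfatide, stood at -0.23 (95% interval -0.52 to 0.06), ARSB at -0.16 (-0.38 to 0.07) and GALNS, a sulfatase of keratan sulfate, at -0.03 (-0.25 to 0.19).

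Of the 7 genes for lipid breakdown and handling, 3 rose (42.9%, beside 10.5% of all genes tested). Another 4 did not pass and 0 fell (beside 12.7%), with a median of 0.32. LIPA, the acid lipase that frees cholesterol and fatty acids from lipoprotein esters (chromosome 10, 89213569 to 89414557), had 1741, 1829 and 1852 normalized counts with anlotinib, against 1264, 1299 and 1263 with DMSO. The replicates of each group lay close together and the groups far apart, at 1.42-fold (SE 0.08 on the log2 scale, adjusted p = 0.000725). Its annotated span overlaps 6 genes on the opposite strand, IFIT1, IFIT2 and IFIT3 among them. ASAH1, acid ceramidase, had 1901, 1801 and 1822 with anlotinib, against 1379, 1415 and 1470 with DMSO, 1.29-fold higher (adjusted p = 0.00534). PSAP, the precursor of the saposins that present sphingolipids to their hydrolases (chromosome 10, 71816298 to 71851375), had 25414, 21666 and 19453 with anlotinib, against 15442, 16783 and 16148 with DMSO. It was 1.37-fold higher (adjusted p = 0.0155), with the anlotinib libraries far more spread than the DMSO ones. The call of PSAP was lost without anlotinib replicate 2, DMSO replicate 1 or DMSO replicate 3 (adjusted p = 0.066, 0.0781 and 0.0718).

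SMPD1 and NPC1 lay higher in every anlotinib library than in any DMSO library but did not pass. SMPD1, acid sphingomyelinase, had 507.4, 404.1 and 365.3 with anlotinib, against 353.4, 325.4 and 333.7 with DMSO (0.32, adjusted p = 0.0853). NPC1, the membrane protein that exports cholesterol from lysosomes, had 3093, 2907 and 2739 against 2582, 2498 and 2483 (0.21, adjusted p = 0.0913). Both passed with scaling by library totals (adjusted p = 0.0264 for SMPD1 and 0.0144 for NPC1). NPC2, the soluble protein that hands cholesterol to NPC1, stood at 0.01 (95% interval -0.19 to 0.22), and PPT1, palmitoyl-protein thioesterase, at -0.12 (-0.30 to 0.07).

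Of the 6 membrane proteins, GPNMB and LAMP2 rose (33.3%, beside 10.5% of all genes tested), 0 fell (beside 12.7%) and 4 did not pass. GPNMB, a glycoprotein of melanosomes and of the lysosomes of macrophages, had the largest fold change of the 45 at one of the lowest levels. It had 48.4, 40.9 and 52.3 normalized counts with anlotinib, against 21.4, 8.16 and 13.3 with DMSO. The groups did not overlap, and the change was 3.35-fold (log2 1.74, 95% interval 1.01 to 2.47, adjusted p = 0.00271). Since macrophages, osteoclasts and melanocytes also express GPNMB, their markers were read in the same libraries. The 7 macrophage and blood markers analysed summed to 261 to 304 with anlotinib and 206 to 255 with DMSO, nearly all of it ITGAM and CD14, and neither passed. ITGAM was higher in every anlotinib library than in any DMSO library (log2 0.32, limma unadjusted p = 0.0401, adjusted p = 0.119), while CD14 overlapped between the groups. AIF1, HBB and TYROBP were also listed but were not found. The pan-leukocyte gene PTPRC averaged 1.28 and 0.342, and CD163 1.82 and 0. CSF1R, the receptor that macrophages depend on, averaged 9.69 and 1.38, without overlap between the groups. The 5 melanocyte and osteoclast markers analysed summed to 24.2 to 65.6 and 20.5 to 42.8, and MLANA (25.7 and 13.6) and PMEL (14.4 and 13.6) did not pass. The part of these markers in the change of GPNMB was not tested.

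LAMP2, a major protein of the lysosomal membrane (chromosome X, 120427827 to 120469365), had 3405, 3505 and 3631 normalized counts with anlotinib, against 2811, 2985 and 2814 with DMSO. It was 1.22-fold higher (adjusted p = 0.0209), the smallest increase that passed among the 45. The call of LAMP2 was lost without any of the 3 DMSO libraries or without anlotinib replicate 2 (adjusted p = 0.0547 to 0.104). LAMP1, its close relative (chromosome 13, 113297241 to 113323672), had 3695, 3327 and 2924 with anlotinib, against 3145, 3271 and 3278 with DMSO, a log2 change of 0.03 (95% interval -0.18 to 0.24). CD63, a tetraspanin of late endosomes, had anlotinib libraries on both sides of DMSO, with 6466, 5574 and 4321 against 4678, 5520 and 4872 (0.10, adjusted p = 0.619). SCARB2, the receptor that carries glucocerebrosidase to lysosomes, stood at -0.06 (-0.24 to 0.12). CLN3, the gene of juvenile neuronal ceroid lipofuscinosis, had 13.1, 15.2 and 19.5 against 10.7, 2.04 and 8.21 (1.28, adjusted p = 0.0953), and overlaps another annotated gene on its own strand, so its low count is uncertain.

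Both sorting receptors rose. IGF2R, the large cation-independent mannose 6-phosphate receptor (chromosome 6, 159969099 to 160113507), had 5404, 4989 and 4914 normalized counts with anlotinib, against 3741, 3806 and 4057 with DMSO, 1.32-fold higher (SE 0.08 on the log2 scale, adjusted p = 0.00504). M6PR, the small cation-dependent receptor (chromosome 12, 8940363 to 8949955), had 2951, 2907 and 2560 with anlotinib, against 2198, 2413 and 2189 with DMSO. It was 1.24-fold higher (adjusted p = 0.0267), and its call was lost without anlotinib replicate 2, DMSO replicate 1 or DMSO replicate 3 (adjusted p = 0.127, 0.103 and 0.121). Neither receptor overlapped between groups. Of the 45 members, 18 lay higher with anlotinib without overlap and 1 lay lower, beside 2959 (18.8%) and 3370 (21.4%) of the 15734 genes tested. The 18 include CLN3, which passed the filter on low values only through the anlotinib libraries.

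**Figure D3:**
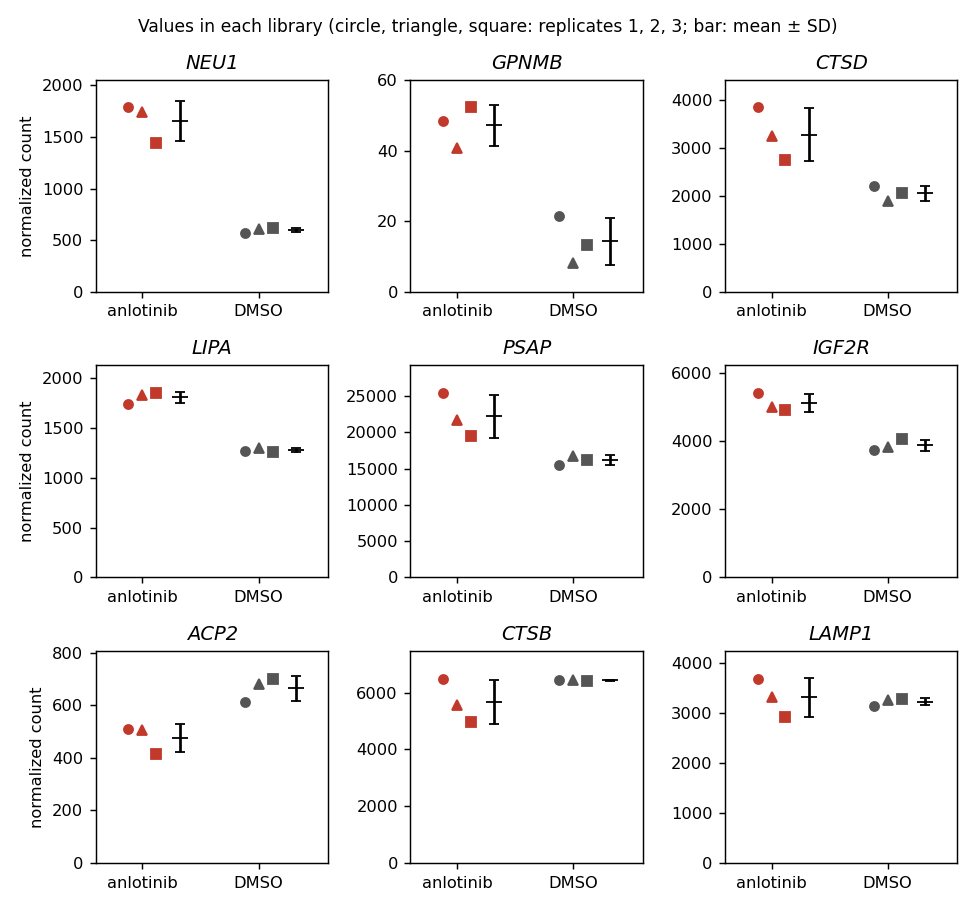
Normalized counts of 9 of the genes in each library, on axes that start at 0, with the mean and SD of the 3 libraries of each group. NEU1, GPNMB, CTSD, LIPA, PSAP and IGF2R do not overlap and are higher with anlotinib, ACP2 is lower, and CTSB and LAMP1 overlap, with their anlotinib libraries spread on both sides of DMSO.

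Partners of 1 complex or pathway were compared as 6 pairs, through the log2 ratio of their normalized counts in each library. The pairs were chosen after the values were seen, and with 3 libraries a group the exact two-sided permutation test cannot go below p = 0.1. NEU1 works in a complex with CTSA and GLB1. The log2 ratio of NEU1 to CTSA was -0.36, -0.26 and -0.23 with anlotinib, against -1.67, -1.42 and -1.57 with DMSO (exact permutation p = 0.1, adjusted over the 6 pairs 0.15). The ratio of NEU1 to GLB1 was higher by 1.32 (-0.11 ± 0.17 with anlotinib and -1.42 ± 0.07 with DMSO, SD, n = 3 each, exact permutation p = 0.1). The NPC1 to NPC2 ratio was higher by 0.19 and the LAMP2 to LAMP1 ratio by 0.26, each with no overlap between the groups and the same p. For IGF2R and M6PR the ratios overlapped between the groups (difference 0.09, exact permutation p = 0.4). None of the 6 differences passed after adjustment.

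Levels were compared between genes per kilobase of the gene length given with the table, which covers the exons of all transcripts and so understates genes with long alternative exons. PSAP led with 6847 normalized counts per kilobase with anlotinib and 4978 with DMSO, followed by CTSL with 2665 and 1926 and CD63 with 2071 and 1908. CTSZ had 1142 and 1220 and CTSD 1046 and 655, so CTSD lay near CTSZ with anlotinib and well under it with DMSO. At the low end stood CTSO with 14.5 and 13.1, GPNMB with 7.82 and 2.37 and CLN3 with 1.62 and 0.709. The genes that rose were found at all levels: LIPA had 368 and 260 and IGF2R 286 and 217, while MANBA had only 33.1 and 24.5.

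Other genes of the same pathway were read from 3 lists of known lysosomal and sorting genes. Of 65 tested, 7 rose (10.8%) and 4 fell (6.15%), beside the 10.5% and 12.7% of all genes, and their median was 0.01. The split depended on the processing: 12 rose and 2 fell with scaling by library totals, and 7 rose and 11 fell without anlotinib replicate 1. The split of all genes moved in the same directions. Library totals gave 2078 higher and 1553 lower of 15780 genes, and the fit without anlotinib replicate 1 called 14.4% higher and 20.4% lower. Together with the 45, 20 of 110 genes rose and 5 fell. Of 25 further hydrolases and cofactors, 2 rose and 0 fell. One of them was SCPEP1, a carboxypeptidase, which stood at 827.7 ± 10.9 with anlotinib and 666.9 ± 41.9 with DMSO (SD, n = 3 each, log2 0.31, limma adjusted p = 0.024). At an unadjusted p under 0.05, 3 of the 25 were lower by limma, and 0 were lower after adjustment with edgeR or DESeq2. HGSNAT, an acetyltransferase of heparan sulfate breakdown, stood at -0.30 (adjusted p = 0.0569). Of 22 further membrane proteins, 5 rose and 3 fell. SLC17A5, the transporter that exports sialic acid freed by sialidases, had 405.6, 527.7 and 514.2 with anlotinib, against 247.4, 214.2 and 247.5 with DMSO, 2.03-fold higher (adjusted p = 0.000125). CLCN7, the lysosomal chloride and proton exchanger, was 1.49-fold higher (adjusted p = 0.00099), and ATP13A2, a polyamine transporter, was lower at 670 ± 126 against 1090 ± 14.7 (log2 -0.72, adjusted p = 0.00106).

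Of 18 sorting genes other than the receptors, 0 rose and 1 fell by limma: GNPTAB, which encodes the catalytic subunits of the enzyme that adds the mannose 6-phosphate tag, had 926.1, 888 and 985.9 with anlotinib, against 1420, 1482 and 1403 with DMSO (log2 -0.62, adjusted p = 0.00025). AP3B1 and CLTA, parts of vesicle coats, stood at -0.22 (adjusted p = 0.0656) and 0.26 (adjusted p = 0.0802). CLTA was the 1 gene of the 18 that was higher at an unadjusted p under 0.05, and it passed with edgeR and DESeq2. Of 4 cathepsin inhibitors tested, CSTA rose, at 21.6 ± 3.34 with anlotinib and 5.21 ± 1.17 with DMSO (adjusted p = 0.00408), having passed the filter on low values only through the anlotinib libraries, SERPINB6 fell (-0.36, adjusted p = 0.0127), and CSTB and CST3 stood at 0.33 (adjusted p = 0.0572) and 0.01 (adjusted p = 0.971). CSTB passed as higher with edgeR and DESeq2. Among the regulators of lysosomal genes, TFEB mRNA fell, with 82.7, 78 and 78 against 136, 113.2 and 118.1 (log2 -0.61, adjusted p = 0.0133), TFE3 stood at 0.25 (adjusted p = 0.0612) and MITF at -0.26 (adjusted p = 0.0789). MYC, which can repress lysosomal genes, fell by limma (-0.28, adjusted p = 0.0467) and ZKSCAN3 stood at -0.24 (adjusted p = 0.328). With edgeR and DESeq2 MYC did not pass and TFE3 passed as higher.

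**Figure D4:**
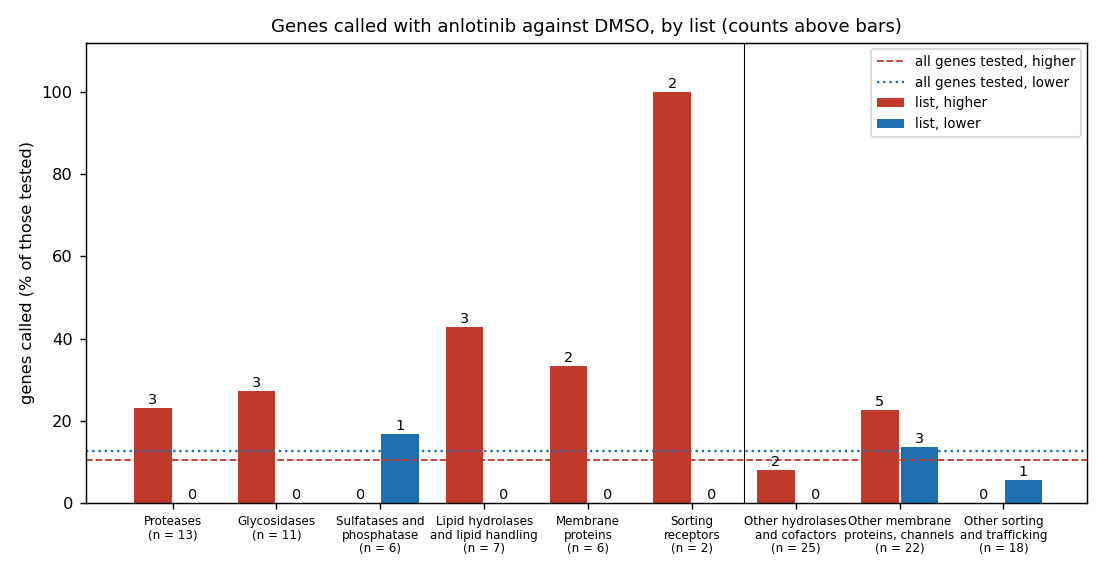
Share of tested genes called higher (red) and lower (blue) in each of the 6 role groups of the 45 genes, left of the vertical line, and in 3 lists of further pathway genes, with counts above the bars. The dashed and dotted lines give 10.5% higher and 12.7% lower over all genes tested, and the groups hold as few as 2 genes.

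Promoter sequence was read from RefSeq windows on GRCh38.p14 that run from 250 bases before to 50 bases after a gene's start. Windows were found for 32 of the 45 genes, those not matched being CTSB, ASAH1, CTSK, CTSO, CTSS, LGMN, HEXA, MANBA, NAGLU, ARSA, SGSH, PSAP and LAMP2. The motif CACGTG, which reads the same on both strands, occurred in 12 of the 32 genes (37.5%), beside 12.6% of 10861 tested genes with a window. The longer TCACGTGA, which contains it, occurred in 6 of 32 (18.8%), beside 2.17%. Matches were found both in genes that rose and in genes that did not pass. Of the 8 genes with a window that rose, 4 held CACGTG and 1 held TCACGTGA, against 8 and 5 of the 23 that did not pass. A match is a description of these letters and not evidence of binding.

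The matches of 4 genes that rose are shown first, 5′ to 3′ on the strand of the gene, with each CACGTG in capitals. IGF2R has 3 matches in chr6:159968935-159969074 (plus strand), NEU1 has 1 in chr6:31862927-31862962 (minus strand), CTSD has 1 in chr11:1763957-1763986 (minus strand), and M6PR has 1 in chr12:8949473-8949502 (minus strand). The stretches of CTSD and M6PR also overlap annotated exons of the same gene, and the window at the other start of M6PR holds 0 matches.
IGF2R: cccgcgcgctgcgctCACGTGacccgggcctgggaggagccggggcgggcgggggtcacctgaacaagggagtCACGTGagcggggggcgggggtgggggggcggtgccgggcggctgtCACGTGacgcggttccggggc
NEU1: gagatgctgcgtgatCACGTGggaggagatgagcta
CTSD: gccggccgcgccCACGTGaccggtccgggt
M6PR: agtttcccacgaCACGTGagtgtgaggggc

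For comparison, LAMP1, GAA and CTSA did not pass and also hold matches. LAMP1 has 6 in its window, the most of the 32 genes, of which 5 lie in chr13:113297032-113297238 (plus strand). GAA has 2, 1 of them in chr17:80101538-80101567 (plus strand), and CTSA has 2, 1 of them in chr20:45891298-45891327 (plus strand). The stretches of GAA and CTSA also overlap annotated exons of the same gene.
LAMP1: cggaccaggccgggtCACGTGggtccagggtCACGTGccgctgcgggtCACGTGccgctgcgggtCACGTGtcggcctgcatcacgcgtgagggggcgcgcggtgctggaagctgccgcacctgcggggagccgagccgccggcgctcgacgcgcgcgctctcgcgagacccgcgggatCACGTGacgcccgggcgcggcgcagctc
GAA: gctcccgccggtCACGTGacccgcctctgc
CTSA: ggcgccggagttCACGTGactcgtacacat

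**Figure D5:**
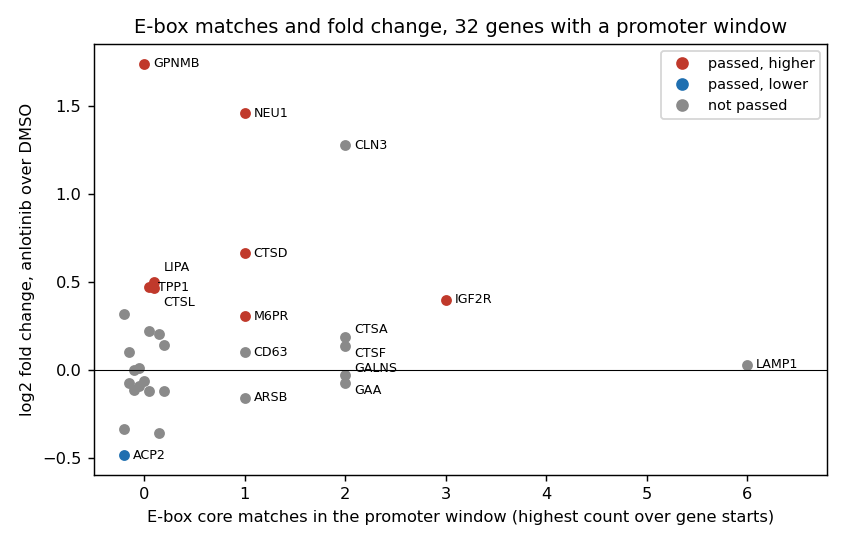
Log2 fold change of the 32 genes with a promoter window against the number of CACGTG matches, taking the start with the most matches (points at 0 are spread sideways so that they can be seen). LAMP1, with 6 matches, lies at 0.03, and GPNMB, with 0, at 1.74.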

How the data were processed

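RNA was measured in 6 libraries of A549 cells. The authors deposited a signal: read counts over a size factor that differs by library. This was read from the values, 100% of which were whole numbers of reads (within 1e-06) once multiplied back. The aligner, the counter and any use of strand are not stated. A mouse assembly is named in the submitters' processing notes, but identifiers are human and all 30483 genes have the positions of GENCODE 29 on GRCh38. The deposited table also gives the authors' log2 fold change, p-value and adjusted p-value. At an adjusted p under 0.05 in that deposited table, 13 members were higher and 1 lower, the same genes as here. That threshold was set here and was not taken from the authors. Another 5 files repeat single libraries of the table and were not used.

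Anlotinib was compared with DMSO by limma-trend, fitted to log2 values with a pseudocount of 1 for genes that averaged 10 or more, with Benjamini-Hochberg adjustment over 15734 genes and a threshold of 0.05. Members, role groups and lists were chosen with earlier results of these data known. Values per library are given for the 3 members of each role group with the smallest p, for members that passed and fell or changed at least 2-fold, and for other members chosen after their values were seen. The 3 genes with the smallest p in each further list and the regulators tested are named, except for some results, 1 of the gene pairs among them, that are not reported here. The procedure was tested on simulated counts with the same spread setting in both groups. In these data the spread was larger with anlotinib for 65.2% of all genes tested, a case that the simulation did not cover. Alternatives covered the pseudocount, the filter, scaling, edgeR, DESeq2 and limma-voom on the recovered reads, a replicate block and leaving out each library. No library was a duplicate (chi-square per degree of freedom 3.5 to 18 between replicates). In this scale 1 read is worth 0.887 to 1.07 normalized counts. Fits used limma 3.58.1, DESeq2 1.42.0 and edgeR 4.0.16 under R 4.3.3. Tables and plots used pandas 2.3.3, scipy 1.17.1, matplotlib 3.10.9 and numpy 2.4.6 under Python 3.11.15.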

Additional observations from a re-analysis of the deposited data

How the results depend on the processing

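Under the 11 alternatives that kept all libraries, 13 to 18 members were called, 12 to 17 of them higher. With a minimum mean of 50, GPNMB was not tested. Scaling by library totals added IDS, NPC1, SGSH and SMPD1, and for all genes it gave 2078 higher and 1553 lower, beside 1645 and 2003 in the report. On the recovered reads edgeR called 3722 genes. Leaving out 1 library at a time gave 10 to 22 members, 6 to 18 further pathway genes and 1972 to 5487 of all genes. The highest of each came without anlotinib replicate 1, and the cause was not tested. CTSD, CTSL, TPP1, NEU1, HEXA, LIPA, ASAH1, IGF2R and ACP2 passed in all 17 alternatives.

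Some members near 0 changed sign, none of them called there. NPC2 was -0.001 with TMM. With library totals CTSH was 0.002, LGMN 0.037, GAA 0.003, MAN2B1 0.074, GALNS 0.05 and SCARB2 0.016. MAN2B1 was 0.052 with edgeR, 0.05 with DESeq2 and 0.016 with limma-voom. Leaving out 1 library gave CTSF -0.024 to 0.24, CTSO -0.077 to 0.36, CTSZ -0.25 to 0.00, GAA -0.24 to 0.055, GLB1 -0.002 to 0.26, NPC2 -0.045 to 0.11, LAMP1 -0.051 to 0.12, CD63 -0.03 to 0.26, MAN2B1 -0.22 to 0.12, CTSH -0.16 to 0.11, CTSK -0.037 to 0.52, LGMN -0.086 to 0.032 and GALNS -0.13 to 0.054. At the low end of these ranges CTSZ and GAA passed as lower.

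Libraries with the same replicate number did not deviate together (correlations of -0.041, 0.026 and -0.003). These values cannot tell whether libraries of the same number were handled together, and the labels do not say. With the replicate block 15 members were called, 13 higher and 2 lower, GUSB being added (adjusted p = 0.046). The 95% intervals were wide for members of low count: that of CLN3 ran from 0.15 to 2.41 and that of CTSO from -0.46 to 0.73 on the log2 scale. The part of read depth in this was not tested.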
